A study of Mus musculus with 8 samples.

Results

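Glucocorticoids such as corticosterone act on a cell only after passing enzymes that switch them on or off, and the 9 genes described here cover that route in the stroma of the mouse uterus. Hsd11b2 and Hsd11b1 encode the 11-beta-hydroxysteroid dehydrogenases, Nr3c1 and Nr3c2 the glucocorticoid and mineralocorticoid receptors, Fkbp4 and Fkbp5 the co-chaperones of the receptor complex, and Tsc22d3, Sgk1 and Zbtb16 are targets that glucocorticoids are known to induce. They were taken by symbol from count tables that list 23238 symbols, and all 9 were found. The enzymes, receptors, co-chaperones and targets were chosen by their known roles, and Hsd11b2 was also selected on its counts in these libraries, which were much higher after estradiol, so its estradiol values are given as a description with no test. Of the 9 genes, 8 had enough reads to be tested, and Nr3c2 did not.

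Stromal cells of the uterus were taken from ovariectomized mice, strain C57BL/6-ICR on the labels, with 2 libraries in each of 4 groups. The groups were Atg7 d/d mice injected with estradiol (E2), Atg7 f/f mice injected with estradiol, Atg7 d/d mice injected with oil and Atg7 f/f mice injected with oil. Atg7 d/d mice carry the floxed autophagy gene Atg7 with Cre expressed from Amhr2, which is active in the mesenchyme of the female tract, and Atg7 f/f mice are the floxed controls. All mice lacked ovaries, no group carried Cre with an unfloxed Atg7, and dose, time after injection and the way stroma was separated are not given in the labels. Nothing says that the 2 libraries of a group came from separate animals, and each p-value here speaks only of how far these samples spread, which may be technical.

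Library totals ran from 5458390 to 6951080 reads, and levels are given as CPM, a gene's reads as a share of its library's scaled total. Atg7 had 4.14 and 3.56 CPM in the d/d estradiol libraries against 2.79 and 3.53 CPM in the f/f estradiol libraries, and 3.32 and 5.20 CPM in the d/d oil libraries against 3.47 and 5.67 CPM in the f/f oil libraries. These counts thus show no loss of Atg7 in the libraries labelled d/d, but the kit reads the 3′ ends of transcripts and the labels do not say which exons are removed, so a 3′ tag outside the deleted stretch checks nothing. Genotype is therefore used here as labelled. All 11 fibroblast markers examined were detected, among them Col1a2, Dcn and Col1a1, and so were all 15 epithelium markers, led by Cldn4, Cdh1 and Krt18. The epithelium markers summed to 1566 and 2093 CPM in d/d and 1565 and 3210 CPM in f/f stroma after estradiol, against 11435 and 4863 CPM in d/d and 18361 and 6204 CPM in f/f stroma in oil. Both oil libraries numbered 1 therefore stood apart in epithelial RNA. The 15 markers did not move as one with estradiol. In d/d stroma 1 rose and 5 fell, where 13.1% of all tested genes rose and 11.2% fell. In f/f stroma 1 rose and 7 fell, where 15.8% of all rose and 14.0% fell. The one that rose was Ltf in both genotypes, named after its values were seen. In such bulk RNA, fewer cells of a type and less RNA per cell cannot be told apart.

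The route works as follows. Hsd11b2 oxidises active corticosterone to inactive 11-dehydrocorticosterone, and in the kidney it shields the mineralocorticoid receptor from glucocorticoids. Hsd11b1 mostly runs the reverse reaction in the endoplasmic reticulum, with NADPH made by H6pd. The bound receptor sits on paired DNA motifs, the glucocorticoid response elements, near target genes, while Fkbp5 lowers the receptor's affinity for hormone and is itself induced by it. In the uterus, estradiol and glucocorticoids are known to oppose each other in several responses.

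Promoter windows show what sequence lies at start sites of some members that changed and of Sgk1, for which no change was called. RefSeq windows on build GRCm38.p6, each of 250 bases before and 50 bases after an annotated start, were held for 6 members with 13 windows in all. Hsd11b2, Zbtb16 and Nr3c1 were not among them, so their start sites were not searched. Windows of 4 members are shown, written 5′ to 3′ in the direction of the gene, with capitals for letters matching an estrogen or glucocorticoid response motif or to 1 arm of it. Sgk1 is chr10:21993640-21993939 on the plus strand, and the others are on the minus strand: Fkbp5 at chr17:28486100-28486399, Tsc22d3 at chrX:140600473-140600772 and Hsd11b1 at chr1:193242311-193242610.
Sgk1: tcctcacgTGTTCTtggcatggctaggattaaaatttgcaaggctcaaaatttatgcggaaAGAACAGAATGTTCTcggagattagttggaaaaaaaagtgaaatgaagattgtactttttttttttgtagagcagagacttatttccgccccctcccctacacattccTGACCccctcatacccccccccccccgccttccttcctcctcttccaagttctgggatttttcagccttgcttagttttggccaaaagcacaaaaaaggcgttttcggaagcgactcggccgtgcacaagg
Fkbp5: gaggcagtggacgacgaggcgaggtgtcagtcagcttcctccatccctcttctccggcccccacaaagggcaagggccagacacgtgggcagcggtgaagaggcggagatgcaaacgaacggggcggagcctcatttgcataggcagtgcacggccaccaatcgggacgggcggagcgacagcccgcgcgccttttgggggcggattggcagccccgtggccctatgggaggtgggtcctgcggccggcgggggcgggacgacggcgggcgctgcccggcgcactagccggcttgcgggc
Tsc22d3: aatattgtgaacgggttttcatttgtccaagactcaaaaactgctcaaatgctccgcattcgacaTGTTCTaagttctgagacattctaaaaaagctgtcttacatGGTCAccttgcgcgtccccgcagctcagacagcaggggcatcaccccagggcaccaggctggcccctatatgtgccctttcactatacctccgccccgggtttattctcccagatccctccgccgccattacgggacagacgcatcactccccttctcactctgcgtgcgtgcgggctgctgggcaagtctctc
Hsd11b1: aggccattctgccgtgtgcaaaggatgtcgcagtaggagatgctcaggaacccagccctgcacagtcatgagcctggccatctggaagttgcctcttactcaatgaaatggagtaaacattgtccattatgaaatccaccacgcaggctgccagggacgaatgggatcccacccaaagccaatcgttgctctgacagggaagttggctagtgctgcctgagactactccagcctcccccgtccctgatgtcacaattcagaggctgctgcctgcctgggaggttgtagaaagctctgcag

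The 6 motifs below were searched on both strands. GNACANNNTGTNC, the glucocorticoid response element, was present in 0.475% of all 32851 windows and its single arm TGTTCT in 19.0%. GGTCANNNTGACC, the estrogen response element, was present in 0.0700% and its single arm GGTCA in 40.5%, the GC box GGGCGG in 35.7% and the TATA box TATAAA in 13.6%. The Sgk1 window held 1 full glucocorticoid element, whose first letter is at position -188 from the start site, and it overlaps 2 of the 3 matches of TGTTCT there. No estrogen response element was found in any of the 13 windows of members, which include none of Hsd11b2, Zbtb16 or Nr3c1. The Fkbp5 window, with 70.7% G and C, matched 4 GC boxes and no hormone motif. Sgk1 has 6 windows and Tsc22d3 has 3, and the one shown of each is that with the most matches to the hormone motifs. The Tsc22d3 window shown held TGTTCT at position -185 and GGTCA at position -144, another held GGTCA at position -15 and the third held neither, and the Hsd11b1 window matched none of the 6 motifs. These matches describe letters only, and a window without them says nothing of sites farther away.

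Hsd11b2 (chr8:105518755-105523988, plus strand, coordinates of GENCODE M21 on mm10) was nearly silent in oil and abundant after estradiol in both genotypes. It had 202 and 151 CPM in the d/d estradiol libraries, against 2.84 and 5.83 CPM in the d/d oil libraries. The f/f libraries had 160 and 97.6 CPM after estradiol, against 2.21 and 3.19 CPM in oil. Every estradiol library lay far above every oil library. The group means were 176 ± 35.7 CPM in d/d and 129 ± 44.1 CPM in f/f stroma after estradiol, against 4.34 ± 2.11 CPM in d/d and 2.70 ± 0.692 CPM in f/f stroma in oil (SD, n = 2 each). Estradiol means were 40.7-fold the oil means in d/d and 47.7-fold in f/f stroma, and the fitted log2 fold changes were 5.34 ± 0.40 and 5.58 ± 0.42 (SE). The d/d value was 4.92 without d/d oil library 1 and 5.95 without d/d oil library 2, and 4.91 without the oil libraries numbered 1 of both genotypes. Ranked by fitted fold change among 13347 tested genes, Hsd11b2 stood 27th in d/d and 25th in f/f stroma. By level it ranked 1040 in d/d and 1496 in f/f stroma after estradiol, against 10819 and 11695 in oil.

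No difference between genotypes was detectable for Hsd11b2. After estradiol the d/d libraries overlapped the f/f libraries, with a log2 difference of 0.45 ± 0.31 (95% interval -0.24 to 1.15). In oil they overlapped too, at 0.69 ± 0.46 (-0.35 to 1.74), and the difference between the estradiol effects of the genotypes was -0.24 ± 0.55 (-1.48 to 1.01), with edgeR adjusted p-values of 1 or 0.9999 for all 3. The summed level of the fibroblast markers moved with Hsd11b2, at 8858 and 8196 CPM in d/d and 8622 and 6098 CPM in f/f stroma after estradiol, against 2431 and 3050 CPM in d/d and 2027 and 2512 CPM in f/f stroma in oil. Most of that rise lay in the collagen genes Col1a1, Col1a2 and Col3a1. Their means after estradiol were 1982, 2457 and 1244 CPM in d/d and 1542, 2215 and 1014 CPM in f/f stroma. In oil they were 52.0, 139 and 59.3 CPM in d/d and 44.1, 88.4 and 44.2 CPM in f/f stroma. Of the 11 fibroblast markers 8 rose in each genotype, these collagen genes among them, where 13.1% of all tested genes rose in d/d and 15.8% in f/f stroma. Dcn had 1131 and 1102 CPM in d/d and 743 and 707 CPM in f/f stroma after estradiol, against 1384 and 1526 CPM in d/d and 1251 and 1023 CPM in f/f stroma in oil, a fall that passed in f/f stroma (-0.65 ± 0.18, edgeR adjusted p = 0.0268). The 8 smooth muscle markers, of which Acta2, Myh11 and Des were the most abundant, summed to 6212 and 7156 CPM in d/d and 6433 and 6588 CPM in f/f stroma after estradiol, against 3050 and 4017 CPM in d/d and 1597 and 3515 CPM in f/f stroma in oil. Of them 4 rose and 1 fell in d/d stroma, where 13.1% of all tested genes rose and 11.2% fell. The one that fell was Smtn (-0.97 ± 0.31), named after its values were seen. In f/f stroma 5 rose and 0 fell, where 15.8% of all rose and 14.0% fell. The part of fibroblasts and smooth muscle cells in the Hsd11b2 values was not tested.

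**Figure D1:**
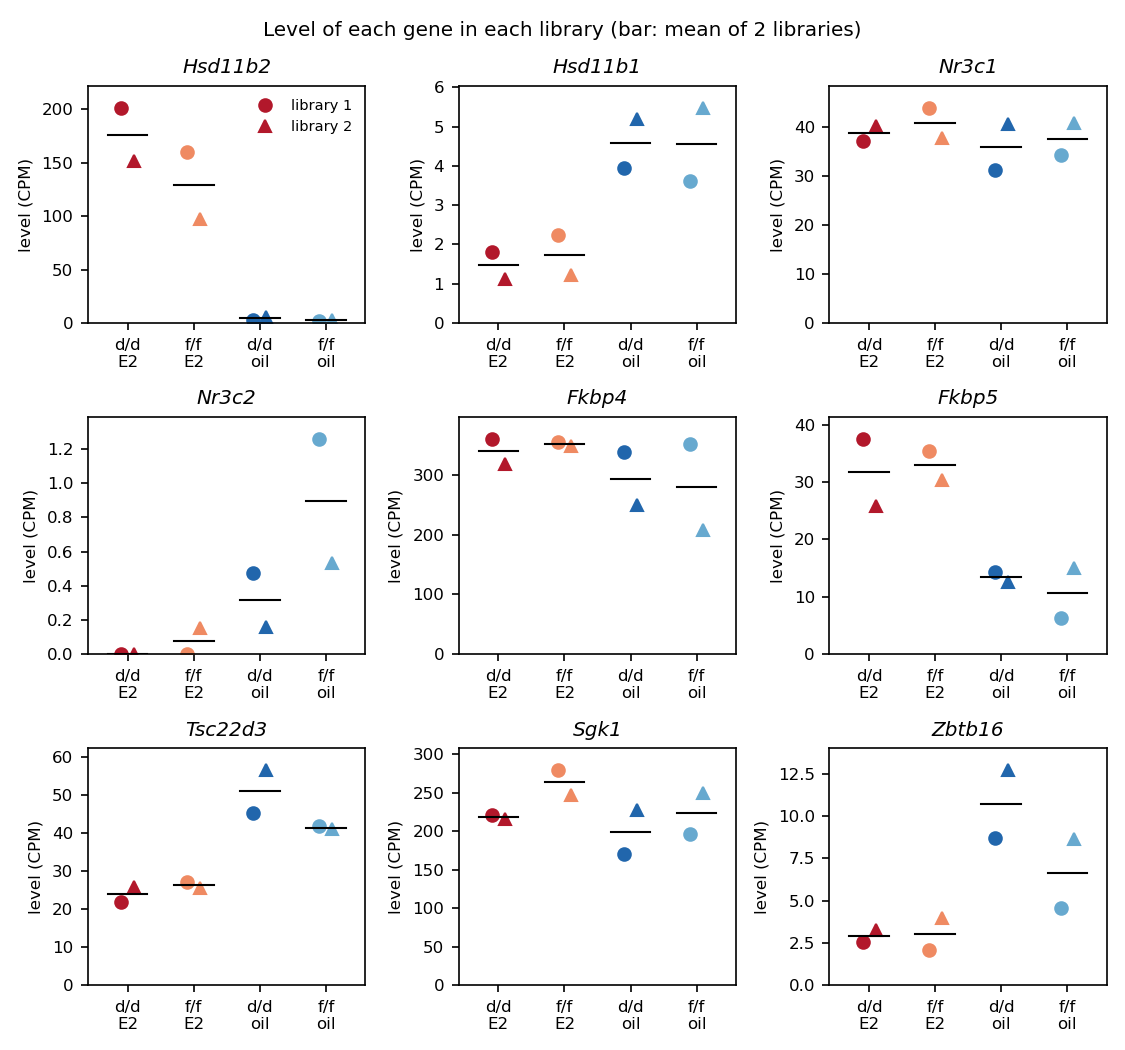
Level of each of the 9 genes in CPM (vertical axes, each from 0) in each library, grouped along the horizontal axis by genotype (d/d or f/f) and injection (E2 or oil). Circles are libraries numbered 1, triangles libraries numbered 2, and lines the mean of 2 libraries. Hsd11b2 runs from 97.6 to 202 CPM after estradiol and from 2.21 to 5.83 CPM in oil, Hsd11b1 and Tsc22d3 lie lower after estradiol, and Nr3c1 and Sgk1 overlap between injections.

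The opposing enzyme, Hsd11b1 (chr1:193221634-193264075, minus strand), was at a few CPM in every library. It had 1.80 and 1.13 CPM in the d/d estradiol libraries, against 3.95 and 5.20 CPM in the d/d oil libraries, and fell by 1.64 ± 0.51 on the log2 scale in d/d stroma (edgeR adjusted p = 0.0465). The f/f libraries had 2.23 and 1.23 CPM after estradiol, against 3.63 and 5.49 CPM in oil, with a log2 fold change of -1.37 ± 0.49 that missed the threshold (edgeR adjusted p = 0.0642). Estradiol libraries lay below oil libraries in both genotypes, on 7 to 33 reads per library. The d/d call held only when an f/f oil library was left out: without any other single library the edgeR adjusted p was 0.0574 to 0.222. It also missed 0.05 with DESeq2 (adjusted p = 0.0607), with scaling by library totals (edgeR adjusted p = 0.0577) and with the oil libraries numbered 1 of both genotypes left out (edgeR adjusted p = 0.0580).

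Because the enzymes run the reaction in opposite directions, their reads were set against each other within each library, as a description. Reads of Hsd11b2 per read of Hsd11b1 were 112 and 134 in d/d stroma after estradiol, against 0.720 and 1.12 in d/d stroma in oil. The f/f ratios were 71.6 and 79.4 after estradiol, against 0.609 and 0.581 in oil. In oil the exact 95% counting intervals of 4 of 4 libraries included 1, from 0.290 to 1.23 in f/f oil library 1 to 0.682 to 1.85 in d/d oil library 2. After estradiol the lowest lower bound was 40.0, in f/f library 2. Summed over a group's libraries, oil had 55 reads of Hsd11b2 against 58 of Hsd11b1 in d/d stroma, a ratio of 0.948 (0.644 to 1.40), and 32 against 54 in f/f stroma, a ratio of 0.593 (0.370 to 0.934). These are ratios of RNA, not of measured enzyme activity. Intervals here cover counting error only.

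**Figure D2:**
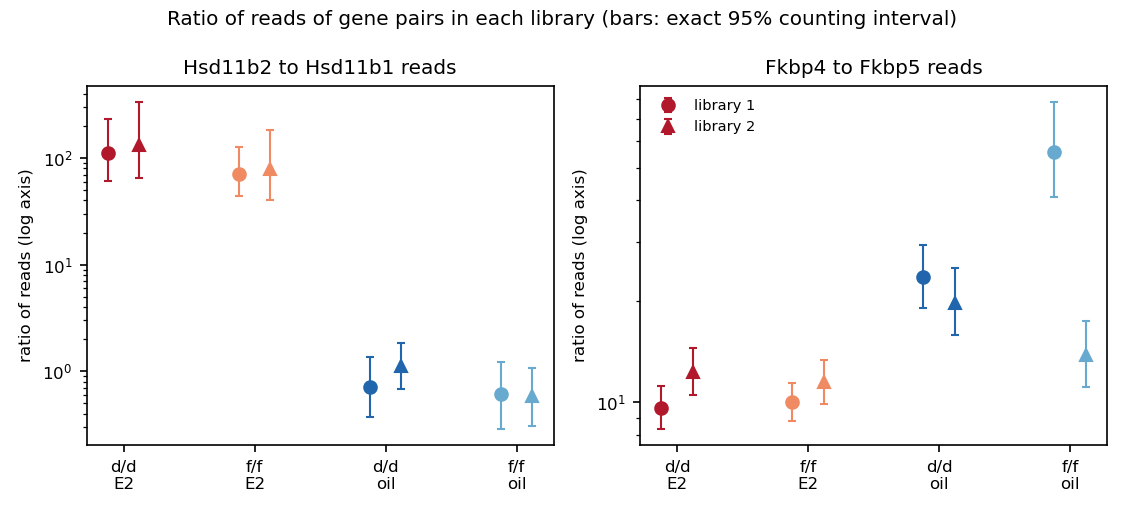
Reads of Hsd11b2 per read of Hsd11b1 (left) and of Fkbp4 per read of Fkbp5 (right) in each library, on log axes, by genotype and injection, with bars for exact 95% counting intervals. The Hsd11b2 ratio lies between 71.6 and 134 after estradiol and between 0.581 and 1.12 in oil. For Fkbp4 to Fkbp5 the oil library of f/f stroma numbered 1 stands highest, at 55.9.

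The glucocorticoid receptor itself stayed within a narrow range. Nr3c1 (chr18:39410545-39519421, minus strand) had 37.2 and 40.3 CPM in the d/d estradiol libraries, against 31.3 and 40.7 CPM in the d/d oil libraries. The f/f estradiol libraries had 44.0 and 37.8 CPM, against 34.2 and 40.9 CPM in the f/f oil libraries. Groups overlapped in each comparison, and the log2 fold changes with estradiol were 0.11 ± 0.21 (95% interval -0.36 to 0.58) in d/d and 0.12 ± 0.21 (-0.35 to 0.59) in f/f stroma. Without the oil libraries numbered 1 the values were -0.075 in d/d and -0.018 in f/f stroma.

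The mineralocorticoid receptor gene Nr3c2 (chr8:76899442-77245012, plus strand) was close to undetected. It had 0 and 0 reads in the d/d estradiol libraries, against 3 and 1 reads in the d/d oil libraries. The f/f estradiol libraries had 0 and 1 reads, against 8 and 3 reads in the f/f oil libraries. For d/d stroma after estradiol, 0 reads allow up to 3 reads over the group, or 0.256 CPM. In f/f stroma the level in oil was 12.5 times that after estradiol on 11 reads against 1, with an exact 95% counting interval of 1.82 to 540 and no test across libraries. An exon of Nr3c2 shares 155 bases with Gm10649 on the other strand, which had 0 reads in all libraries.

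Of the co-chaperones, Fkbp5 rose with estradiol in both genotypes and Fkbp4 did not pass the test. Fkbp5 (chr17:28399094-28517527, minus strand), which holds the receptor in a form with low hormone affinity, had 37.6 and 25.9 CPM in the d/d estradiol libraries, against 14.4 and 12.6 CPM in the d/d oil libraries. Its f/f levels were 35.5 and 30.4 CPM after estradiol, against 6.31 and 15.05 CPM in oil. Every estradiol library lay above every oil library. The log2 fold changes were 1.23 ± 0.36 in d/d (edgeR adjusted p = 0.0379) and 1.63 ± 0.37 in f/f stroma (edgeR adjusted p = 0.0120). In d/d stroma the call held only when an f/f oil library was left out, and the edgeR adjusted p without any other single library was 0.0609 to 0.228. In f/f stroma it was lost without estradiol library 1 (edgeR adjusted p = 0.0707), and the fold change was 2.35 without oil library 2, leaving as the oil level the 6.31 CPM of the library with the highest epithelium sum.

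Fkbp4 (chr6:128429735-128438677, minus strand), which helps carry the receptor to the nucleus, had 362 and 319 CPM in the d/d estradiol libraries, against 339 and 250 CPM in the d/d oil libraries. Its f/f levels were 355 and 349 CPM after estradiol, against 352 and 208 CPM in oil. The groups overlapped, and log2 fold changes were 0.21 ± 0.26 (95% interval -0.38 to 0.79) in d/d and 0.33 ± 0.26 (-0.26 to 0.92) in f/f stroma. Oil libraries numbered 1, high in epithelium markers, were also the higher ones in Fkbp4, and the part of those cells was not tested. Leaving out f/f oil library 1 gave 0.79 (edgeR adjusted p = 0.0393) and leaving out f/f oil library 2 gave -0.034. Without the oil libraries numbered 1 of both genotypes the f/f value was 0.74 (edgeR adjusted p = 0.0142). Reads of Fkbp4 per read of Fkbp5 were 9.63 and 12.3 in d/d stroma after estradiol, against 23.6 and 19.8 in oil, and 10.02 and 11.5 in f/f stroma after estradiol, against 55.9 and 13.8 in oil.

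Among the targets, Tsc22d3 fell with estradiol in both genotypes, Zbtb16 fell in d/d stroma, and Sgk1 passed in neither. Fkbp5, given above as a co-chaperone, is also induced by glucocorticoids and rose in both genotypes. Tsc22d3 (chrX:140539528-140600659, minus strand), which encodes the anti-inflammatory leucine zipper protein GILZ, had 22.0 and 25.9 CPM in the d/d estradiol libraries, against 45.4 and 56.7 CPM in the d/d oil libraries. Stroma labelled f/f had 27.1 and 25.7 CPM after estradiol, against 41.8 and 41.1 CPM in oil. All estradiol libraries lay below all oil libraries, and Tsc22d3 fell in both genotypes, with log2 fold changes of -1.09 ± 0.20 in d/d (edgeR adjusted p = 0.00618) and -0.65 ± 0.20 in f/f stroma (edgeR adjusted p = 0.0353). The d/d call was lost only without d/d estradiol library 1 (edgeR adjusted p = 0.0729). In f/f stroma it was lost without either estradiol library of either genotype or without f/f oil library 1 (edgeR adjusted p = 0.0618 to 0.154), with scaling by library totals (0.0665) and with only the f/f libraries in the fit (0.0812). The difference between the estradiol effects was -0.44 ± 0.28 and not called (unadjusted p = 0.147, edgeR adjusted p = 0.9999), so the larger d/d value is not shown to differ.

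Zbtb16 (chr9:48654297-48836222, minus strand), a transcription factor also known as PLZF, had 2.52 and 3.24 CPM in the d/d estradiol libraries, against 8.69 and 12.8 CPM in the d/d oil libraries. Its f/f levels were 2.10 and 3.996 CPM after estradiol, against 4.57 and 8.67 CPM in oil. Estradiol libraries lay below oil libraries within each genotype, on 14 to 81 reads. Zbtb16 fell by 1.89 ± 0.47 on the log2 scale in d/d stroma (edgeR adjusted p = 0.0198), a call lost without d/d estradiol library 1, d/d estradiol library 2 or d/d oil library 2 (edgeR adjusted p = 0.0888 to 0.138). In f/f stroma the value was -1.12 ± 0.47 (edgeR adjusted p = 0.0995), and it passed without f/f oil library 1 (-1.49, edgeR adjusted p = 0.0434) and without the oil libraries numbered 1 of both genotypes (-1.54, edgeR adjusted p = 0.0360).

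Sgk1 (chr10:21882184-21999903, plus strand), a kinase that acts on sodium channels and is induced by both corticoid receptors, had 221 and 216 CPM in the d/d estradiol libraries, against 171 and 228 CPM in the d/d oil libraries. Stroma labelled f/f had 280 and 247 CPM after estradiol, against 196 and 250 CPM in oil. Estradiol and oil libraries overlapped in both genotypes, and the log2 fold changes were 0.13 ± 0.20 (95% interval -0.32 to 0.59) in d/d and 0.24 ± 0.20 (-0.21 to 0.70) in f/f stroma. Of its 6 windows, only the one shown holds the full glucocorticoid element, and no window of Tsc22d3 or Fkbp5 does.

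**Figure D3:**
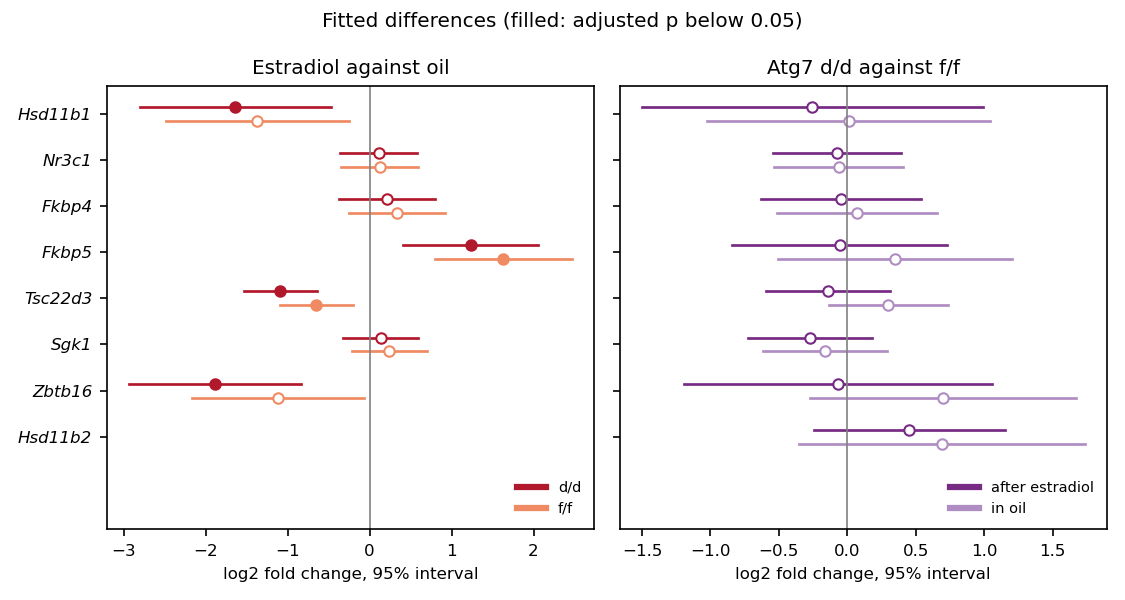
Fitted log2 fold changes (points) with 95% intervals (lines) of the tested genes, for estradiol against oil (left, d/d above f/f) and for d/d against f/f (right, after estradiol above in oil). Filled points have an adjusted p below 0.05, and Hsd11b2 has no test on the left. Fkbp5 lies right of 0 and Tsc22d3 left of it in both genotypes, and no point on the right is filled.

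Counted over the members, 4 of the 7 given a test passed in d/d stroma (1 up, 3 down) and 2 of 7 in f/f stroma (1 up, 1 down). Of all 13347 tested genes, 24.3% passed in d/d (13.1% up, 11.2% down) and 29.8% in f/f stroma (15.8% up, 14.0% down), so the f/f share of members is near that of all genes. The member counts rest on single libraries. In d/d stroma 0 passed without d/d estradiol library 1, 1 without d/d estradiol library 2 or d/d oil library 2, and 2 without d/d oil library 1 or either f/f estradiol library. In f/f stroma 0 passed without f/f estradiol library 1, 1 without f/f estradiol library 2 or either d/d estradiol library, and 3 without f/f oil library 1.

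Between genotypes, 0 of the 8 tested members passed after estradiol, in oil or for the difference between the estradiol effects, as did 0% of all tested genes in each. At an unadjusted p below 0.05 edgeR gave 403 genes after estradiol, 339 in oil and 210 for the difference between effects, and none was a member: the smallest unadjusted p of a member was 0.176, 0.138 and 0.147 in that order. DESeq2 also called 0 members. The libraries of the genotypes did not overlap for 1 of 8 tested members after estradiol and 2 of 8 in oil, where 34.2% and 24.5% of all tested genes did not, so nothing is read from these counts. After estradiol both d/d libraries lay below both f/f libraries for Sgk1, with a log2 difference of -0.27 ± 0.20 (95% interval -0.73 to 0.18). In oil both d/d libraries lay above both f/f libraries for Tsc22d3, at 0.30 ± 0.19 (-0.14 to 0.74), and for Zbtb16, at 0.70 ± 0.43 (-0.27 to 1.67).

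Across the 8 libraries, Fkbp5 followed Hsd11b2 (Pearson r = 0.91 of log2 CPM) while Tsc22d3 (-0.91), Hsd11b1 (-0.87) and Zbtb16 (-0.82) ran against it. Hsd11b2 was far higher in every estradiol library than in every oil library, so these values mostly restate the split by injection. The 5 genes closest to Hsd11b2 among 8939 of at least 10 CPM were Maged2, Igf1, Col6a2, Col1a1 and Rps27l, each with r = 0.997, and 1374 genes had an r above 0.9. Igf1, a growth factor of the stroma, had 808 and 791 CPM in d/d and 742 and 621 CPM in f/f stroma after estradiol, against 71.9 and 101 CPM in d/d and 61.5 and 91.7 CPM in f/f stroma in oil.

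Among other genes that glucocorticoids induce in various tissues, more fell than rose. This list and those of the next paragraphs were chosen with earlier results of these data known, so their counts are a description. Of 25 listed, 22 were tested. In d/d stroma 3 rose and 6 fell, where 13.1% of all tested genes rose and 11.2% fell, with a median log2 fold change of -0.34, and in f/f stroma 2 rose and 7 fell, where 15.8% of all rose and 14.0% fell, with a median of -0.49, against medians of 0.016 and 0.0061 over all tested genes. Mt1 and Mt2, the metallothioneins, fell in both genotypes, with log2 fold changes of -1.72 ± 0.21 and -1.32 ± 0.19 in d/d and -1.93 ± 0.21 and -1.37 ± 0.19 in f/f stroma. Cdkn1c, an inhibitor of the cell cycle, had 16.7 and 19.4 CPM in d/d stroma after estradiol, against 88.2 and 98.8 CPM in oil, and fell in both genotypes, at -2.37 ± 0.21 in d/d and -1.65 ± 0.20 in f/f stroma. Lcn2, an iron-trapping protein that estradiol is also known to induce in the uterus, went the other way, with log2 fold changes of 5.66 ± 0.35 in d/d and 4.998 ± 0.32 in f/f stroma. The calls of these 4 genes held in all 8 fits that left out 1 library. The count that fell was 3 in d/d stroma without d/d estradiol library 1, and 4 in f/f stroma without either f/f estradiol library. Several of these genes answer to other signals too, metals for the metallothioneins among them. In oil Mt1 had 715 and 531 CPM in d/d and 837 and 657 CPM in f/f stroma, higher in the libraries numbered 1, high in epithelium markers. Lcn2 was higher there too, Mt2 in d/d stroma only, and Cdkn1c was lower there in both genotypes. The part of the epithelium in the values of this list was not tested.

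**Figure D4:**
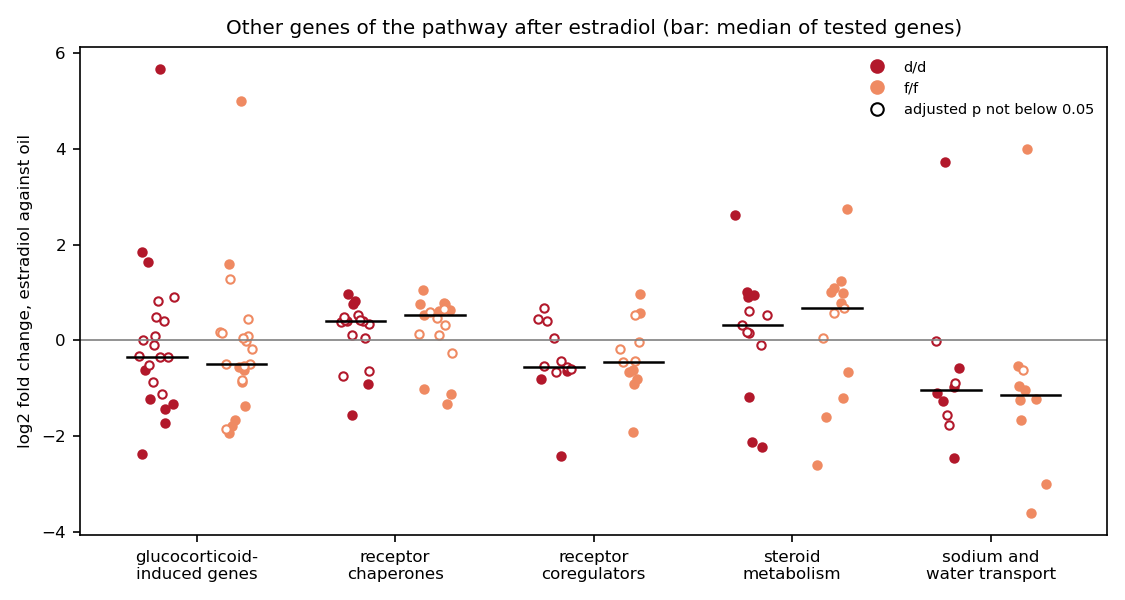
Log2 fold change of estradiol against oil (vertical axis) for every tested gene of 5 lists (horizontal axis), with d/d stroma left of f/f stroma in each. Filled points have an adjusted p below 0.05, open points do not, and black bars are medians, which run from -1.03 (d/d) and -1.13 (f/f) for sodium and water transport to 0.40 (d/d) for chaperones and 0.67 (f/f) for steroid metabolism.

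Genes for the proteins that fold and load the receptor changed in both directions. All 17 were tested, of which 3 rose and 2 fell in d/d stroma, shares near the 13.1% and 11.2% of all tested genes. In f/f stroma 7 rose and 3 fell, where 15.8% and 14.0% of all did (medians 0.40 in d/d and 0.53 in f/f stroma). Fkbp1a, an immunophilin smaller than Fkbp4 and Fkbp5, rose by 0.82 ± 0.17 in d/d and 1.05 ± 0.17 in f/f stroma. Hspa4, a heat shock protein of the Hsp110 family, rose by 0.98 ± 0.20 in d/d and 0.62 ± 0.20 in f/f stroma, and Stip1, which bridges Hsp70 and Hsp90, rose in f/f stroma by 0.75 ± 0.18 and had 0.43 ± 0.18 in d/d stroma. The Hsp40 proteins Dnajb1 and Dnaja1 fell, at -1.55 ± 0.29 and -0.91 ± 0.19 in d/d and -1.33 ± 0.29 and -1.02 ± 0.19 in f/f stroma. Of coregulators, 12 were tested, with 0 up and 3 down in d/d stroma and 2 up and 5 down in f/f stroma (medians -0.54 and -0.44), on the same background. Ppargc1a, a coactivator of energy metabolism, fell, at -2.42 ± 0.47 in d/d and -1.91 ± 0.46 in f/f stroma, and so did the acetyltransferase Ep300, at -0.80 ± 0.21 and -0.81 ± 0.20. Its relative Crebbp fell in both too, at -0.63 ± 0.18 in d/d and -0.65 ± 0.18 in f/f stroma. Carm1, an arginine methyltransferase, rose by 0.96 ± 0.25 in f/f stroma and Ncoa2, a steroid receptor coactivator, fell there, at -0.90 ± 0.24. Without d/d estradiol library 1 no chaperone and no coregulator passed in d/d stroma, and in f/f stroma only 1 chaperone rose without f/f oil library 2. The f/f count of coregulators that rose was 0 without either f/f estradiol library and 1 without any other single library. Only 1 coregulator fell in f/f stroma without f/f oil library 1, and likewise without either f/f estradiol library. Ppargc1a was at -1.81 in d/d stroma without d/d oil library 1 and at -1.14 in f/f stroma without f/f oil library 1. In oil it had 60.8 and 29.9 CPM in d/d and 47.3 and 20.4 CPM in f/f stroma. Dnajb1 had 690 and 485 CPM in d/d and 1042 and 574 CPM in f/f stroma in oil. Both were thus higher in the oil libraries numbered 1, high in epithelium markers, while Ep300 and Carm1 were lower there. The part of the epithelium was not tested.

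Genes that make, convert or export steroids were tested for 13 of 29 listed, with 4 up and 3 down in d/d stroma and 6 up and 4 down in f/f stroma (medians 0.32 and 0.67). Of all tested genes 13.1% rose and 11.2% fell in d/d, and 15.8% and 14.0% in f/f stroma. H6pd, which supplies NADPH to the enzyme encoded by Hsd11b1, had 65.1 and 46.3 CPM in the d/d estradiol libraries, against 25.0 and 32.6 CPM in the d/d oil libraries. It rose by 0.95 ± 0.23 in d/d and 1.09 ± 0.23 in f/f stroma. Hsd11b1 had the opposite sign in both, with a fall called in d/d stroma only. Abcb1a, a drug and steroid exporter, fell, at -2.21 ± 0.28 in d/d and -2.59 ± 0.28 in f/f stroma. Akr1c14, a 3-alpha-hydroxysteroid dehydrogenase, rose by 2.61 ± 0.30 in d/d and 2.74 ± 0.31 in f/f stroma. Srd5a3, named after the steroid 5-alpha-reductases, rose by 1.01 ± 0.22 and 1.02 ± 0.22, and Star, which brings cholesterol into mitochondria, fell, at -2.12 ± 0.49 in d/d and -1.60 ± 0.50 in f/f stroma. Cyp11b1, Cyp11b2, which finish corticosterone and aldosterone synthesis in the adrenal gland, and Serpina6, the corticosteroid-binding globulin, had 0 reads in every library, as did others of the list. Without d/d estradiol library 1 the d/d counts were 1 up and 1 down, and without f/f estradiol library 1 the f/f counts were 2 up and 1 down. The Star value was -3.01 in d/d stroma without d/d estradiol library 2 and -2.23 in f/f stroma without f/f estradiol library 1.

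Among sodium and water transport genes, some of which corticoid receptors control in the kidney, more fell than rose. Of 13 listed, 10 were tested, with 1 up and 5 down in d/d stroma and 1 up and 8 down in f/f stroma (medians -1.03 and -1.13). Of all tested genes 11.2% fell in d/d and 14.0% in f/f stroma, with medians of 0.016 and 0.0061. Nedd4l, the ligase that removes sodium channels and is inhibited by Sgk1, fell, at -1.10 ± 0.21 in d/d and -1.24 ± 0.21 in f/f stroma. The water channel genes Aqp5 and Aqp1 fell, at -2.46 ± 0.53 and -1.26 ± 0.22 in d/d and -3.59 ± 0.56 and -0.96 ± 0.22 in f/f stroma, and Aqp8 rose by 3.73 ± 0.38 in d/d and 3.99 ± 0.38 in f/f stroma. Aqp5 moved with the summed epithelium markers. It had 37.6 and 35.1 CPM in d/d and 24.3 and 30.7 CPM in f/f stroma after estradiol. In oil it had 237 and 164 CPM in d/d and 530 and 135 CPM in f/f stroma. The part of the epithelium in these levels was not tested. The log2 fold change of Aqp5 in f/f stroma was -2.26 without f/f oil library 1 and -4.30 without f/f oil library 2. Without d/d estradiol library 1 no gene of the list fell in d/d stroma, and 2 genes fell in f/f stroma when either f/f estradiol library was left out. Among the genes named from the last 4 lists, Abcb1a, Akr1c14 and Aqp8 passed in all 8 fits that left out 1 library in both genotypes, and each other lost its call in at least 1 such fit, Hspa4 in f/f stroma in all 8.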

How the data were processed

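RNA of 8 libraries was measured with a QuantSeq 3′ end kit from total RNA, per the labels' protocols. The authors deposited raw counts per gene symbol, 1 file per library, a unit read from the values, which are whole numbers with differing totals. Bowtie2, edgeR and build mm10 are named in the submitters' processing notes. For counter, annotation and strand setting, the sources used here give nothing. Because 3′ tags do not grow with transcript length, no length correction was made.

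For 35 symbols on several lines the highest line was used, and no member was among them. Genes passed filterByExpr (minimum count 10, minimum total 15), which left 13347. Counts were scaled by TMM and fitted with edgeR 4.0.16 in R 4.3.3 by quasi-likelihood on 1 mean per group, with contrasts for estradiol in each genotype, deletion in each treatment and their interaction. P-values were adjusted by Benjamini and Hochberg over all tested genes at 0.05. Each SE is the size of the log2 fold change divided by the square root of its F statistic. Intervals use the 4 residual degrees of freedom of the fit plus 5.08 that edgeR borrows across genes. The method was tested on simulated data in which few genes changed, in the f/f estradiol group only. That setting had no epithelium difference between libraries, so it does not check the calls made here. Alternatives were DESeq2 1.42.0, other scaling and filters, summed lines, a replicate block, fewer libraries and each library left out.

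The members and lists were chosen with earlier results of these data known. Named besides the members were from each list, per contrast, up to 4 called genes of smallest adjusted p, the 3 strongest markers of fibroblasts, epithelium and smooth muscle, and the 5 genes closest to Hsd11b2. Atg7, Gm10649, Smtn, Cyp11b1, Cyp11b2 and Serpina6 were named outside that rule. Floors are 3 reads, and counting intervals are exact binomial at 95%. Depth limits genes of a few CPM, where a library holds few reads. Over the 8 libraries, endothelium markers summed to 1211 to 2171 CPM, macrophage markers to 115 to 251 and lymphocyte markers to 4 to 14. Granulocyte markers summed to 1 to 20, mesothelium markers to 87 to 212 and erythroid markers to 163 to 495. Nearly all of the mesothelium sum was Wt1, at 85.1 to 210 CPM, the only 1 of those 5 markers with enough reads to be tested.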

Additional observations from a re-analysis of the deposited data

How the results depend on the processing

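Between genotypes and for the difference between effects, 0 genes passed under every alternative run. With estradiol in f/f stroma, 3978 genes passed, 2305 with only the contrast's own groups and 1505 to 4168 with 1 library left out. Of glucocorticoid genes there, 2 passed, 1 with library totals only, 1 with only the contrast's own groups, 4 with both oil libraries numbered 1 left out and 0 to 3 with 1 library left out. In d/d stroma 3242 genes passed, 740 to 4345 with 1 library left out, and 4 glucocorticoid genes, 2 under a filter of 10 CPM in 2 libraries and 0 to 4 with 1 library left out. A lone library left in a group is assumed to vary like the others. Fitted fold changes of the 2 enzymes, Fkbp5, Tsc22d3 and Zbtb16 with estradiol kept their sign under every alternative that tested them; the filter of 10 CPM in 2 libraries left Hsd11b1 and Zbtb16 untested.

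Signs changed only for uncalled values, and the cause was not tested. With both oil libraries numbered 1 left out, a choice made after seeing the data, the estradiol effect was -0.018 for Nr3c1 in f/f stroma, and -0.075 for Nr3c1 and -0.064 for Sgk1 in d/d stroma. The d/d against f/f difference in oil was then -0.080 for Hsd11b1 and -0.26 for Fkbp5, and the interaction of Fkbp5 was 0.21. With 1 library left out, the estradiol effect ran from -0.034 to 0.79 for Fkbp4 in f/f stroma, and from -0.066 to 0.31 for Nr3c1 and -0.055 to 0.36 for Sgk1 in d/d stroma. The difference in oil ran from -0.23 to 0.30 for Hsd11b1, -0.26 to 0.11 for Nr3c1, -0.28 to 0.54 for Fkbp4, -0.12 to 1.07 for Fkbp5 and -0.39 to 0.027 for Sgk1. After estradiol it ran from -0.62 to 0.24 for Hsd11b1, -0.18 to 0.032 for Nr3c1, -0.15 to 0.037 for Fkbp4, -0.35 to 0.19 for Fkbp5 and -0.47 to 0.46 for Zbtb16. The interaction ran from -0.63 to 0.23 for Hsd11b1, -0.66 to 0.37 for Hsd11b2, -0.19 to 0.18 for Nr3c1, -0.58 to 0.24 for Fkbp4, -1.12 to 0.070 for Fkbp5 and -0.30 to 0.11 for Sgk1.

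Nothing in the labels pairs the libraries beyond a shared number. Same-numbered libraries deviated together between genotypes (r = 0.44 in oil, 0.20 after estradiol) and not between injections (-0.012 in d/d, -0.20 in f/f stroma), and Hsd11b2 was higher in d/d than in f/f stroma in each same-numbered pair. With the number as a replicate block 3423 genes passed in d/d and 4094 in f/f stroma, with 3 glucocorticoid genes in each, where Hsd11b1 in d/d stroma was lost (edgeR adjusted p = 0.0573) and Zbtb16 in f/f stroma passed (0.0408). The d/d against f/f difference of Hsd11b2 was then 0.46 after estradiol and 0.70 in oil, called in neither. With crossed numbers 4324 genes passed in d/d and 4946 in f/f stroma. Of the pathway lists, with only the contrast's own groups 1 chaperone, 0 coregulators and 3 steroid genes rose in f/f stroma and 2 coregulators, 2 steroid genes and 4 transport genes fell, while 5 coregulators and 8 transport genes fell in d/d stroma. With RLE factors 4 chaperones and 1 coregulator rose in f/f stroma, and 1 coregulator with DESeq2 or no filter. Without both oil libraries numbered 1, 5 transport genes fell in f/f stroma, and 5 chaperones and 1 coregulator rose in d/d stroma.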
